A study of Sus scrofa with 14 samples.

Results

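Nuclei of the pig mammary gland were chosen as hormone-sensing luminal by a marker rule, from single-nucleus RNA sequencing of 10 glands. Of 127926 nuclei, 2264 met it. A nucleus needed at least 300 detected genes, UMIs (unique molecular identifiers, 1 per captured RNA molecule) in at least 2 of the 6 markers ESR1, PGR, TNFSF11, TMEM196, KNG1 and ADRA1A, and no UMI of the exclusion genes COL1A1, DCN, PTPRB, CD163, CD3E, ADIPOQ and RGS5, which mark fibroblasts, endothelium, macrophages, T cells, adipocytes and mural cells. The glands came from multiparous sows, with 2 sows at each of 5 stages, namely G90 (day 90 of gestation), L0 (day 0 of lactation), L20 (day 20 of lactation), PI2 (2 days post natural involution) and PI7 (7 days). The labels name no treatment or genotype, so that the groups differ by stage only as far as they say. A gland is 1 library and the replicate of the tests below (n = 2 per stage unless a gland is said to be left out). In tests between stages, p-values measure the spread between the 2 sows of a stage. In tests of members against other nuclei of the same glands, they measure how that difference varies over the glands of all stages. Where stage and class are tested together, they measure how it varies between the sows of a stage.

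In the luminal layer of the mammary gland, only some cells carry the receptors for estrogen and progesterone. These hormone-sensing cells rarely divide and make little milk, and they pass the hormonal message on to neighbouring receptor-negative cells through secreted or membrane-bound ligands such as amphiregulin and RANKL. The neighbours include KIT-positive luminal progenitors, which carry the RANKL receptor, and the alveolar cells that make casein and milk fat in lactation.

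The markers play different parts in that scheme. ESR1 (estrogen receptor alpha, chr1:14217032-14604906) and PGR (progesterone receptor, chr9:32035684-32129776) are the receptors that give the cells their name. TNFSF11 (chr11:24468011-24505421) encodes RANKL, KNG1 (chr13:124521276-124557384) encodes kininogen, the precursor of kinins, and ADRA1A (chr14:10623391-10733378) encodes an adrenergic receptor. TMEM196 (chr9:88798095-88858270) encodes a transmembrane protein. Positions are whole genes in the RefSeq annotation of Sscrofa11.1, and UMIs of nuclei can come from exons and introns of a gene alike.

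The members were spread over all glands. The G90 glands held 324 and 158, those of L0 253 and 149, of L20 156 and 98, of PI2 361 and 95, and of PI7 474 and 196. Of the 2264, 965 held at least 3 markers and 1299 exactly 2. A further 1197 nuclei with at least 2 markers carried an exclusion gene and were left out. They numbered 163 and 20 in the G90 glands, 22 and 5 in those of L0, 47 and 281 of L20, 184 and 1 of PI2, and 331 and 143 of PI7. Of 124070 distinct barcodes, 4081 occurred in more than 1 library, and 0 members shared a barcode with a member of another library.

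Nuclei just inside and just outside the rule differed little in depth when glands were pooled. The 17277 nuclei with exactly 1 marker and no exclusion gene held a median of 2562 UMIs, and the 1299 with exactly 2 held 2826. In the L0 glands the medians were 2816 and 2380 UMIs with 1 marker and 3509 and 3536 with 2. A UMI of a pan-epithelial gene (EPCAM, CDH1, ESRP1, GRHL2, ELF5, KRT8 or KRT18) was present in 87.0% of nuclei with 1 marker, 87.5% of nuclei with 2 and 98.4% of nuclei with at least 3. With exactly 2 markers this share ran from 62.5% in L20 replicate 2 to 98.3% in L0 replicate 1. ESR1 was detected in 15042 nuclei without an exclusion gene, each of which needed only 1 further marker to enter. For this reason values are given for all members and for the nuclei with at least 3 markers, whose median was 4205 UMIs.

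Pooled over glands, the markers were found together. ADRA1A was detected in 36.4% of nuclei with TMEM196 and 1.63% of nuclei without it, and TNFSF11 in 10.0% of nuclei with PGR and 0.968% of nuclei without it. PGR was detected in 5.54% of nuclei with ESR1 and 2.12% of those without. In the L0 glands, PGR was in 6.07% and 6.94% of nuclei with ESR1 and 3.97% and 3.90% of those without. ADRA1A was there in 16.9% and 16.7% of nuclei with TMEM196 and 0.770% and 0.522% of those without. These shares describe the nuclei that the rule draws on, and deeper nuclei hold UMIs of more genes. The markers were chosen with earlier results of these data known, so their joint detection is no independent support for the rule.

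ESR1 with PGR was the most frequent pair, in 431 members, and 144 and 110 of these came from the L0 glands. At L0, 22 of 253 and 11 of 149 members held at least 3 markers, against 146 of 324 and 48 of 158 at G90 and 237 of 361 and 56 of 95 at PI2. The combination of ESR1, PGR, TNFSF11, TMEM196 and ADRA1A was found in 85 members, 47 and 13 of them at G90 and 0 at L0. The combination of ESR1, TMEM196, KNG1 and ADRA1A was found in 140 members and in 0 members of the G90 and L0 glands. The members of different stages thus met the rule with different markers.

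Members made up 2.83% and 0.845% of the nuclei in the G90 glands, 2.20% and 1.58% in those of L0, 1.21% and 0.640% of L20, 2.90% and 1.01% of PI2, and 2.84% and 1.95% of PI7. Both L20 glands were below both glands of L0 and of PI7, while G90 and PI2 overlapped with every other stage, with means over the glands of G90 of 1.84% ± 1.40 (SD, n = 2), of L0 1.89% ± 0.44, of L20 0.923% ± 0.401, of PI2 1.95% ± 1.33 and of PI7 2.39% ± 0.63. Nuclei with at least 3 markers made up 1.27% and 0.257% in the G90 glands, 0.192% and 0.117% in those of L0, 0.518% and 0.222% of L20, 1.90% and 0.596% of PI2, and 1.45% and 1.01% of PI7. Both L0 glands were below every other gland by this stricter count. No test is given for these shares, since the markers chose the nuclei, and a share also moves with the markers' own level and with the other cells of the gland. The exclusion genes removed unlike numbers of nuclei with at least 2 markers. In L20 replicate 2 they took 281 and left 98, against 22 and 5 taken in the L0 glands. The order of the stages above therefore holds only for nuclei without an exclusion gene.

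After every nucleus was thinned to 1000 UMIs, the share with at least 3 markers was for G90 0.532% ± 0.595 (SD, n = 2), for L0 0.0620% ± 0.0294, for L20 0.217% ± 0.054, for PI2 0.802% ± 0.886 and for PI7 1.16% ± 0.055. Nuclei under 1000 UMIs drop out of this count, which were 25.0% and 13.6% in the G90 glands, 15.8% and 22.7% in those of L0, 26.5% and 25.8% of L20, 21.3% and 15.4% of PI2, and 25.8% and 23.6% of PI7. Relative to members and other epithelial nuclei together, members took 8.20% ± 9.11 for G90, 4.66% ± 1.52 for L0, 12.9% ± 11.8 for L20, 6.42% ± 4.81 for PI2 and 15.2% ± 9.9 for PI7. L20 replicate 2 held only 364 other epithelial nuclei and 2500 immune nuclei, so its epithelial share rests on few nuclei.

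**Figure D1:**
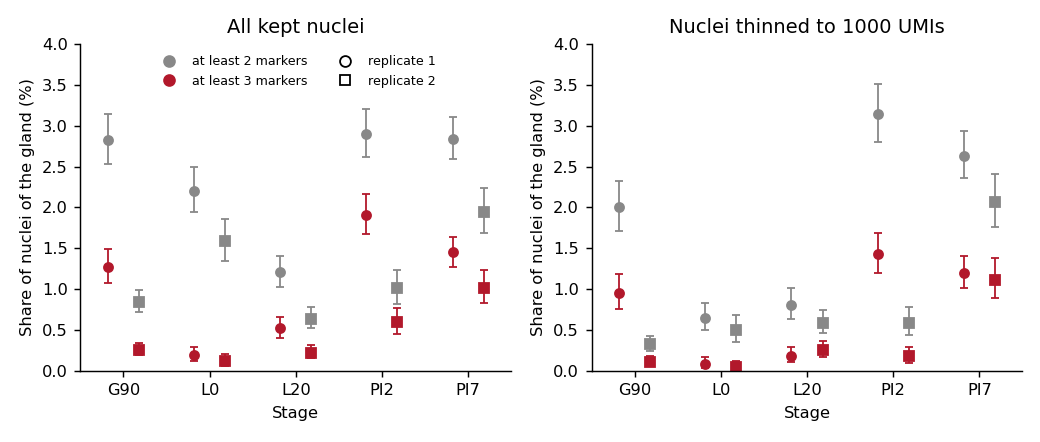
Share of the nuclei of each gland (%) that held at least 2 (grey) or at least 3 (red) of the 6 markers and no exclusion gene, by stage, for all kept nuclei (left) and for nuclei thinned to 1000 UMIs (right). Circles are replicate 1, squares replicate 2 and bars exact 95% binomial intervals, which cover counting error only; the L0 glands have the lowest shares with at least 3 markers, and the 2 glands of G90 and of PI2 lie far apart.

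Libraries held 18962138 to 53165191 UMIs, with a median of 1405 to 2496 UMIs per nucleus. The share of mitochondrial UMIs set the members apart from other epithelial nuclei in several glands and touches the results below. Of nuclei with at least 3 markers, 241 of 965 held over 5% mitochondrial UMIs. In the G90 glands these were 32 of 146 and 0 of 48, in those of L0 16 of 22 and 8 of 11, of L20 59 of 67 and 18 of 34, of PI2 12 of 237 and 47 of 56, and of PI7 43 of 242 and 6 of 102. Of other epithelial nuclei, 2.01% were over 5%, and of immune nuclei 15.7%. Immune nuclei were also often over 5% in some of the same glands, with 21.6% and 28.6% in those of L0. They reached 65.8% and 14.9% in those of L20 and 36.2% in PI2 replicate 2. L0 replicates 1 and 2, L20 replicates 1 and 2 and PI2 replicate 2 were the glands where most nuclei with at least 3 markers were over 5%. Class comparisons were therefore repeated on nuclei with at most 5%, which were 724 over all glands. A gland needed at least 10 such nuclei to enter. This left 6 glands (both of G90 and PI7, L20 replicate 2 and PI2 replicate 1), and the nuclei of the other glands were not compared.

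**Figure D2:**
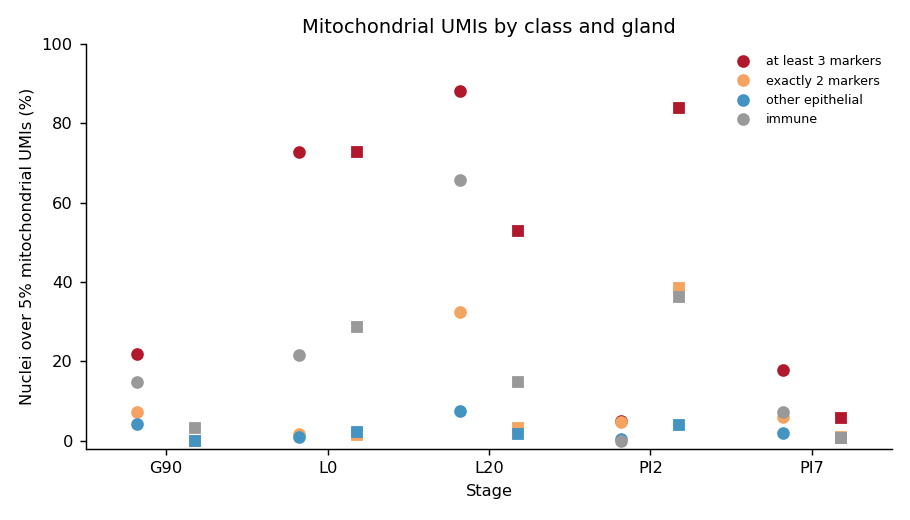
Percent of nuclei with over 5% mitochondrial UMIs by stage, in nuclei with at least 3 markers (red), nuclei with exactly 2 markers (orange), other epithelial nuclei (blue) and immune nuclei (grey); circles are replicate 1 and squares replicate 2. Between 53% and 88% of the red nuclei are over the limit in both glands of L0 and of L20 and in PI2 replicate 2, while the blue nuclei stay low in every gland. The grey nuclei reach 66% in L20 replicate 1 and 36% in PI2 replicate 2.

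To show what the members express beyond the genes that chose them, their UMIs were summed in each gland, written as CPM (UMIs of a gene per 1000000 UMIs of the class in that gland) and compared with those of 32767 other epithelial nuclei. These were nuclei with at least 2 pan-epithelial genes and none of the 6 markers, the exclusion genes, TP63 and MYH11. The genes of either rule were not tested, and genes are compared between classes, not with each other. In edgeR's quasi-likelihood test with the gland as a block, 695 of 14289 genes were higher in members (4.86%) and 130 lower (0.91%) where a call needed a Benjamini-Hochberg adjusted p under 0.05 and a log2 difference of more than 1 either way. With at least 3 markers, 1088 of 13041 were higher (8.34%) and 1344 lower (10.3%). With at least 3 markers and at most 5% mitochondrial UMIs the shares were 7.44% and 8.41% of 12515 genes, and with exactly 2 markers 1.03% and 0.0456% of 13162.

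Transcription factors of the hormone-sensing lineage were higher in the members. Of 13 tested genes on a list of 16 known companions of the estrogen receptor in luminal cells, 9 were higher in members and 0 lower. With at least 3 markers 10 were higher (FOXA1, GATA3, TBX3, MYB, SPDEF, TOX3, XBP1, PRLR, ERBB4 and AREG) and 1, PROX1, was lower. The median log2 fold change of the list was 3.94 there against -0.18 over all genes tested. The same 10 genes were higher among nuclei with at most 5% mitochondrial UMIs. TRPS1 (log2 fold change 0.16, SE 0.29, adjusted p = 0.734) and ZNF703 (log2 fold change 0.55, SE 0.32, adjusted p = 0.208) did not pass, and CITED1 was too low to test.

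FOXA1, the pioneer factor that opens chromatin for the estrogen receptor (chr7:62471233-62479638), held 75.7 and 93 CPM in the G90 glands, 107 and 267 in those of L0, 72.4 and 201 of L20, 234 and 73.5 of PI2, and 377 and 346 of PI7 in nuclei with at least 3 markers. In other epithelial nuclei it held 0 to 7.28 CPM, and in immune nuclei, used as a measure of free RNA, 0 to 7.87 CPM. Immune nuclei held at least 2 of PTPRC, CSF1R, MRC1, MSR1, CD163, CD3E and CD2 and no UMI of a pan-epithelial gene or marker. That choice leaves out nuclei with free RNA of those genes, so the measure can be too low. The lowest gland with at least 3 markers lay above the highest gland of both other classes. Against other epithelial nuclei the log2 fold change was 6.63, SE 0.34, adjusted p = 1.28e-12 (edgeR, n = 10 glands). Nuclei with exactly 2 markers held 0 to 108 CPM and 0 in both L0 glands and L20 replicate 2, with a log2 fold change of 3.26, SE 0.47, adjusted p = 5.34e-05.

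TFAP2B, a transcription factor of the AP-2 family (chr7:44745653-44774563) that is on none of the lists, had a larger fold change than any factor of that list. It held 345 and 198 CPM in the G90 glands, 61.3 and 169.8 in those of L0, 174 and 282 of L20, 220 and 102 of PI2, and 264 and 265 of PI7, against 0.212 to 4.69 CPM in other epithelial nuclei. The groups did not overlap, with a log2 fold change of 7.03, SE 0.33, adjusted p = 4.07e-13 in edgeR. Members as a whole gave a log2 fold change of 6.13, and nuclei with exactly 2 markers 4.39.

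TBX3, a T-box factor of mature luminal cells (chr14:37582704-37596767), held 144 and 155 CPM in the G90 glands, 84.2 and 121 in those of L0, 125 and 184 of L20, 225 and 247 of PI2, and 222 and 194 of PI7 in nuclei with at least 3 markers and 0.212 to 19.9 CPM in other epithelial nuclei. The groups did not overlap (log2 fold change 4.69, SE 0.35, adjusted p = 5.3e-10, edgeR). TOX3, a chromatin protein of the luminal lineage, held 166 and 225 CPM in the G90 glands, 45.9 and 48.5 in those of L0, 153 and 228 of L20, 201 and 97.2 of PI2, and 93.8 and 168 of PI7 and was lowest in the L0 glands (log2 fold change 5.68, SE 0.29, adjusted p = 9.26e-13 against 0.849 to 6.74 CPM in other epithelial nuclei). GATA3, a luminal master regulator, was present in the summed UMIs of both classes in every gland, with 437 to 1569.7 CPM in nuclei with at least 3 markers and 64.8 to 363 CPM in other epithelial nuclei, and was higher in the former in edgeR (log2 fold change 2.45, SE 0.26, adjusted p = 1.7e-07). MYB and SPDEF were higher too, at log2 fold changes of 5.22 and 3.94, while the difference of XBP1 was the smallest of the 10 at 1.26. XBP1 did not pass the fold limit for all members (0.81).

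Receptors for hormones and growth factors split. Of 19 tested on a list of 21, 5 were higher in nuclei with at least 3 markers (among them RXRA, PRLR, ERBB4 and FGFR1), 3 were lower (VDR, EGFR and FGFR2) and 11 did not pass. Over all 13041 genes of this fit, 8.34% were higher and 10.3% lower. For all members, RARB, PRLR, ERBB4 and FGFR1 were among those higher and VDR and EGFR lower, and the calls of RARB, VDR and EGFR each were lost when PI2 replicate 1 was left out (log2 fold changes 0.89, -0.98 and -0.96). EGFR and VDR also fell short of the fold limit without PI2 replicate 2 (-0.93 and -0.87), VDR without PI7 replicate 2 (-0.997), and RARB did not pass without PI7 replicate 1 or 2 (1.03 and 0.77).

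ERBB4, a receptor for neuregulins (chr15:113966573-115096984), held 2056 and 810.1 CPM in the G90 glands, 260.3 and 607 in those of L0, 582 and 1389 of L20, 1090 and 966 of PI2, and 1227 and 1016 of PI7 in nuclei with at least 3 markers. Other epithelial nuclei held 20.9 to 136 CPM, below each of these glands (log2 fold change 4.22, SE 0.38, adjusted p = 1.21e-08, edgeR). PRLR, the prolactin receptor, held 6799 and 3713 CPM in the G90 glands, 1209.8 and 1989.6 in those of L0, 1288 and 3271 of L20, 4863 and 3044 of PI2, and 3279.5 and 2601 of PI7 in nuclei with at least 3 markers. It was higher there than in the other epithelial nuclei of the same gland in all 10 glands (log2 fold change 1.93, SE 0.36, adjusted p = 0.000247, edgeR), although the ranges overlapped, the latter holding 57 to 2281 CPM.

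EGFR, the receptor of amphiregulin and epiregulin, went the other way. It held 17.4 to 124 CPM in nuclei with at least 3 markers and 239 to 707 CPM in other epithelial nuclei, and the groups did not overlap (log2 fold change -2.33, SE 0.23, adjusted p = 6.51e-08, edgeR). VDR (-2.10) and FGFR2 (-1.42) were lower as well. NR3C1, the glucocorticoid receptor, was not called at 97.1 to 234 CPM and 108 to 338 CPM.

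Among paracrine ligands, AREG and EREG, the EGF receptor ligands amphiregulin and epiregulin, were higher in members. They lie close to each other, at chr8:70417935-70428106 and chr8:70351316-70372530. AREG held 75.7 and 96.9 CPM in the G90 glands, 0 and 24.3 in those of L0, 116 and 16.3 of L20, 20.3 and 18.4 of PI2, and 166 and 78.7 of PI7 in nuclei with at least 3 markers and at most 1.71 CPM in other epithelial nuclei (log2 fold change 7.10, SE 0.34, adjusted p = 5.37e-13, edgeR). It was 0 in L0 replicate 1 and otherwise above every gland of the other class. EREG held 122 and 101 CPM in the G90 glands, 68.9 and 24.3 in those of L0, 232 and 141 of L20, 64.3 and 257 of PI2, and 256 and 171 of PI7, against 0.53 to 4.92 CPM, and was above in every gland (log2 fold change 6.18, SE 0.24, adjusted p = 2.12e-14, edgeR). Of 15 tested ligands these were the only ones higher, WNT5B (-1.80) and EFNA5 (-2.17) were lower, and 11 did not pass. The shares over all 13041 genes were 8.34% higher and 10.3% lower, so the counts of ligands are near them. WNT4, a known ligand of these cells, was not analysed here.

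Receptors and decoys for the members' own ligands were measured at low levels. TNFRSF11A, which encodes RANK, the receptor of RANKL, held 5.25 to 109 CPM in nuclei with at least 3 markers and 25.3 to 301 CPM in other epithelial nuclei (log2 fold change -1.85, SE 0.25, adjusted p = 4.82e-06, edgeR). TNFRSF11B, which encodes the decoy receptor osteoprotegerin, held 23.9 and 136 CPM in the G90 glands, 61.3 and 24.3 in those of L0, 0 and 5.42 of L20, 2.26 and 94.5 of PI2, and 0 and 0 of PI7. It was above the other epithelial nuclei, at most 3.47 CPM, in some glands only and 0 in both PI7 glands and in L20 replicate 1 (log2 fold change 4.78, SE 0.82, adjusted p = 9.42e-05, edgeR). BDKRB2, a kinin receptor, passed (log2 fold change 1.68, SE 0.48, adjusted p = 0.0113) at 0 to 21 CPM with 4 glands at 0.

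**Figure D3:**
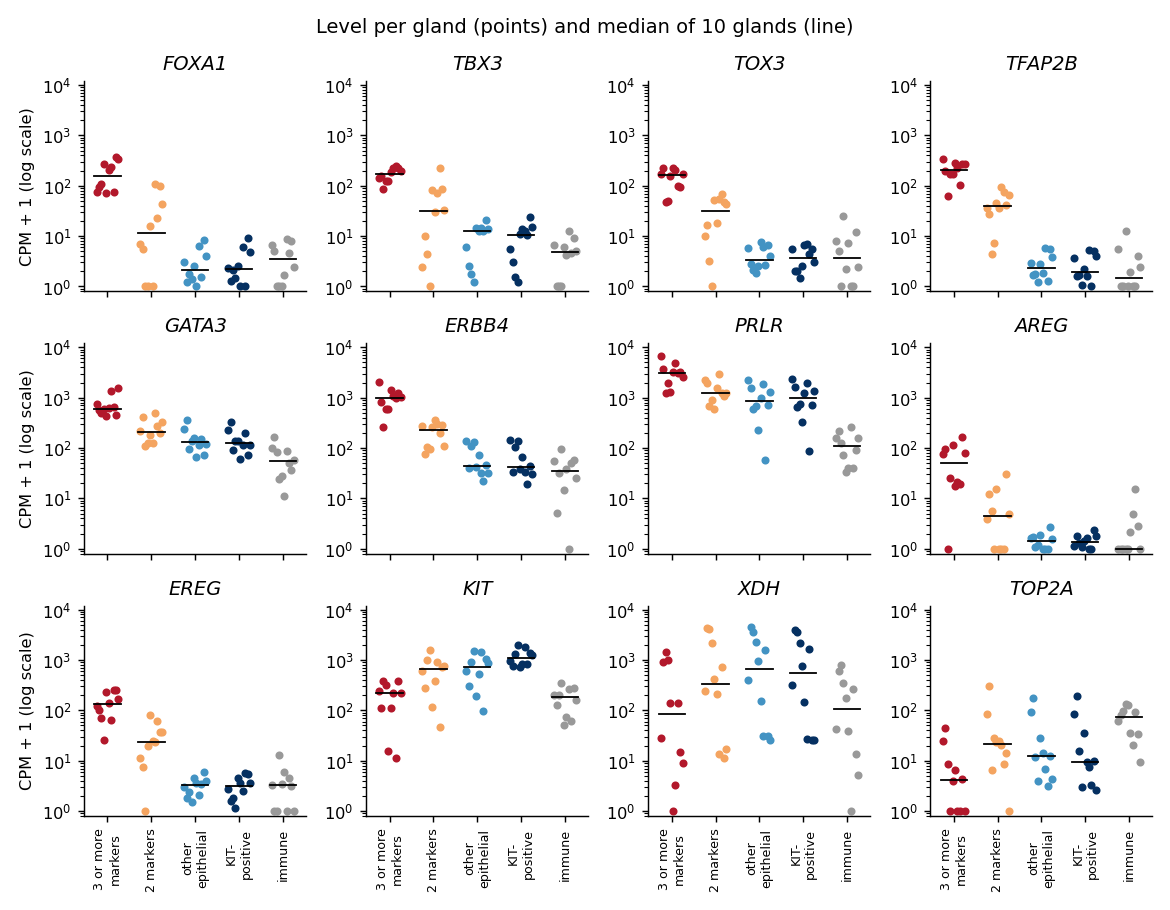
Level of 12 genes (CPM + 1, log axis) in nuclei with at least 3 markers, nuclei with exactly 2 markers, other epithelial nuclei, KIT-positive luminal nuclei and immune nuclei. Each point is 1 of the 10 glands and the line is their median. In nuclei with at least 3 markers, FOXA1, TBX3, TOX3, TFAP2B, GATA3, ERBB4 and EREG lie above every gland of other epithelial and KIT-positive nuclei. XDH and KIT lie lower in the nuclei with at least 3 markers. KIT helped to choose the KIT-positive nuclei, so its gap to that class is set by the choice.

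Genes of milk secretion were lower in nuclei with at least 3 markers. Of 21 tested on a list of 24, 16 were lower, 0 were higher and 5 did not pass, with a median log2 fold change of -1.26. Among them were CSN1S1 (-2.24) and CSN3 (-1.74), which encode caseins, XDH (-2.39), needed to secrete milk fat, and STAT5A, the factor that carries the prolactin signal. For all members only XDH passed (log2 fold change -1.09, SE 0.22, adjusted p = 0.0027, edgeR), and its fold fell short of the limit without PI2 replicate 1 (-1.09 became -0.99) or PI2 replicate 2 (-0.94). Nuclei with at most 5% mitochondrial UMIs gave 13 of 21 lower.

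CSN2, beta casein, held 15.9 and 485 CPM in the G90 glands, 2083 and 1989.6 in those of L0, 29 and 5.42 of L20, 3.39 and 289 of PI2, and 0.83 and 0 of PI7 in nuclei with at least 3 markers and 139.6 and 2644 CPM in the G90 glands, 1932 and 2012 in those of L0, 219 and 9.26 of L20, 4.56 and 494 of PI2, and 2.57 and 0 of PI7 in other epithelial nuclei. At L0 the classes overlapped. Immune nuclei, which make no casein, held 1000.5 and 296 CPM at L0 and 240.2 CPM in G90 replicate 2, so that part of these levels lies at the level of free RNA. The part of free RNA in the class difference (log2 fold change -1.26, SE 0.33, adjusted p = 0.00691, edgeR) was not tested.

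Proliferation genes were low. Of 16 tested on a list of 18 cell cycle genes, 9 were lower in nuclei with at least 3 markers and 0 higher (median log2 fold change -1.08), and for all members 0 of 16 passed. TOP2A, the topoisomerase of dividing cells, held 23.9 and 42.6 CPM in the G90 glands, 7.66 and 0 in those of L0, 2.9 and 5.42 of L20, 0 and 0 of PI2, and 3.32 and 0 of PI7, against 2.21 to 178 CPM in other epithelial nuclei (log2 fold change -1.99, SE 0.34, adjusted p = 8.39e-05, edgeR). In both classes the G90 glands held the most. Nuclei with exactly 2 markers held 84.9 and 308 CPM at G90 and were not lower (0.45).

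Markers of other lineages were checked in the same fit. Of 7 tested progenitor genes, 4 were lower in nuclei with at least 3 markers, among them KIT (log2 fold change -1.98, SE 0.23, adjusted p = 5.36e-07) and ALDH1A3 (log2 fold change -2.09, SE 0.29, adjusted p = 6.48e-06). KRT14, a keratin of basal cells, was higher, at 155 to 1097 CPM against 26.7 to 645 CPM (log2 fold change 1.85, SE 0.23, adjusted p = 1.24e-06, edgeR), while the other 3 tested basal genes did not pass. Nuclei with TP63 or MYH11 were kept out of the other epithelial class but not out of the members. The part of this in the KRT14 difference was not tested. Summed over 9 basal and myoepithelial genes, levels ran from 314 to 1144 CPM in nuclei with at least 3 markers and from 90.0 to 714 CPM in other epithelial nuclei, where TP63 and MYH11 are 0 by the rule. Summed over 8 immune genes they ran from 0 to 156 CPM in nuclei with at least 3 markers and from 52.4 to 275.6 CPM in other epithelial nuclei. Immune nuclei held 1951 to 5026 CPM. They were chosen by PTPRC, CSF1R, MRC1, MSR1 and CD2 of this list among others, so the gap to them is set by the choice. None of 7 fibroblast, 9 endothelial, 2 mural and 4 adipocyte genes was higher apart from POSTN, a matrix protein of fibroblasts, and 5 endothelial genes, 2 immune and 2 adipocyte genes were lower.

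Genes known to respond to estrogen or progesterone were mixed. Of 8 tested on a list of 13, GREB1, AGR2 and XBP1 were higher in nuclei with at least 3 markers and 5 did not pass. GREB1, an early estrogen target, held 737 and 229 CPM in the G90 glands, 145 and 72.8 in those of L0, 718 and 141 of L20, 322 and 578 of PI2, and 176 and 186 of PI7 (log2 fold change 1.16, SE 0.41, adjusted p = 0.0351, edgeR) and did not pass among nuclei with at most 5% mitochondrial UMIs (log2 fold change 0.59, SE 0.35, adjusted p = 0.249). Of 10 coregulators of steroid receptors 0 passed with at least 3 markers, and 0 for all members. Of 16 involution and STAT3 genes, only CTSB, a lysosomal protease, was higher (log2 fold change 1.15, SE 0.31, adjusted p = 0.00799). Pooled over glands, CTSB held 274 CPM in the nuclei with over 5% mitochondrial UMIs and 136 CPM in the others. It did not pass at the limit of 5% (log2 fold change 0.56, SE 0.28, adjusted p = 0.171).

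AQP5, a water channel of secretory epithelia, differed more than CTSB between nuclei over and within 5% mitochondrial UMIs when glands were pooled. Nuclei with at least 3 markers held 50.8 and 62 CPM in the G90 glands, 796 and 1140.4 in those of L0, 206 and 97.6 of L20, 20.3 and 486 of PI2, and 70.5 and 110.2 of PI7, against 4.98 to 10.9 CPM in other epithelial nuclei (log2 fold change 4.46, SE 0.51, adjusted p = 5.45e-07, edgeR). Pooled over glands it was 311 CPM in the 241 nuclei with over 5% mitochondrial UMIs and 59.5 CPM in the 724 others. In the glands with at least 10 nuclei within 5%, the difference from other epithelial nuclei still passed (log2 fold change 2.67, SE 0.40, adjusted p = 7.54e-05, edgeR). The lineage factors differed less between nuclei over and within 5%, FOXA1 holding 184 and 220 CPM and TBX3 166 and 199 CPM. Nuclei over and within 5% came from the glands in unlike proportions. Mitochondrial share, gland and stage therefore cannot be told apart in these pooled levels. Over 5% were 59 of 67 nuclei in L20 replicate 1, and 16 of 22 and 8 of 11 at L0. The part of the mitochondrial share in the AQP5 levels was not tested.

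Beyond the lists, the 10 genes with the largest differences in nuclei with at least 3 markers that were higher in every gland were TFAP2B, FOXA1, GALNT13, EREG, CEP112, PCDH7, MDGA2, TOX3, LSAMP and RAB3B. GALNT13, a transferase of mucin-type glycosylation, held 298 to 3083 CPM against 7.33 to 34.8 CPM (log2 fold change 6.36, SE 0.31, adjusted p = 5.37e-13, edgeR). CEP112, a centrosomal protein, held 245 to 3388 CPM against 7.42 to 50.9 CPM. PCDH7, a protocadherin, MDGA2, a cell adhesion molecule, and RAB3B, a small GTPase of secretory vesicles, were higher by 6.08, 5.96 and 5.46 on the log2 scale. GALNT13, CEP112, PCDH7 and MDGA2 had no gland of overlap with the other epithelial nuclei.

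The 10 genes with the largest differences that were lower in every gland were KIF11, GLP1R, P3H2, RASAL1, MCOLN2, PLEKHS1, ADCY8, CHSY3, TPD52L1 and SLCO4C1. ADCY8, an adenylyl cyclase, held 13.1 to 252 CPM against 135 to 867 CPM (log2 fold change -2.56, SE 0.21, adjusted p = 4.21e-09, edgeR). GLP1R, the receptor of glucagon-like peptide 1, held 0 to 46.5 CPM against 24.2 to 173 CPM, and KIF11, a spindle motor, was at 0 in 7 of the 10 glands against 1.82 to 86.1 CPM.

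Compared with KIT-positive luminal nuclei, the named factors were higher in the members too. They were 21972 nuclei with at least 2 KIT UMIs, or 1 of KIT and 1 of ALDH1A3, with a pan-epithelial gene, at most 1 marker and none of the exclusion genes, TP63 and MYH11. KIT and ALDH1A3 were not tested here. Of 13836 genes, 761 were higher in members (5.5%) and 125 lower (0.903%). With at least 3 markers 1137 of 12681 were higher (8.97%) and 1211 lower (9.55%). FOXA1 (6.50), TFAP2B (6.96), ERBB4 (4.25) and EREG (6.17) were higher on the log2 scale, and 10 of 13 companions were higher and 1 lower. EGFR (-2.37) and TNFRSF11A (-1.96) were lower. A nucleus can be both KIT-positive and other epithelial, and the members are the same, so the comparisons are not independent of each other.

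To describe the markers by stage without using a marker to choose its own nuclei, each was read in nuclei that held at least 3 of the other 5. A gland needed at least 10 such nuclei to enter a fit. L0 replicate 2, with 7 to 9, was therefore left out of the fits of every marker but TNFSF11, so that L0 was 1 gland there and was assumed to vary like the other stages. Its levels are still given. The nuclei chosen for PGR in this way numbered 120 and 42 at G90 but only 18 and 9 at L0. PGR held 1443 and 546 CPM in the G90 glands, 149.7 and 506 in those of L0, 275 and 216 of L20, 158 and 144 of PI2, and 88.7 and 145 of PI7. Both G90 glands were above every later gland, of which L0 replicate 2 was the next. In edgeR, with 9 glands and only replicate 1 of L0, the difference of L0 from G90 was -2.55 on the log2 scale (SE 0.80, adjusted p = 0.397) and the test over all stages gave an adjusted p of 0.196 (unadjusted p = 0.000463), so that neither passed.

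TNFSF11 held 1118 and 641 CPM in the G90 glands, 228 and 146 in those of L0, 117 and 299.7 of L20, 32.9 and 299 of PI2, and 308 and 104 of PI7. The G90 glands were again the highest and did not overlap with any other stage, but the test over all stages did not pass (edgeR, adjusted p = 0.63, unadjusted p = 0.0611). ESR1 and KNG1 ran in the other order. ESR1 held 915 and 491 CPM in the G90 glands, 728 and 1022 in those of L0, 1178 and 1919.5 of L20, 2752 and 1877 of PI2, and 1977 and 2857 of PI7, with both G90 glands below every gland of L20, PI2 and PI7 (edgeR over all stages, 9 glands without L0 replicate 2, adjusted p = 0.728). KNG1 held 45.5 and 59.2 CPM in the G90 glands, 261 and 214 in those of L0, 139 and 630 of L20, 856 and 389 of PI2, and 232 and 941 of PI7, lowest in the G90 glands (9 glands without L0 replicate 2, adjusted p = 0.543).

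TMEM196 and ADRA1A overlapped between stages, with 332 to 925 CPM and 211 to 1128 CPM. In nuclei chosen by at least 2 of the other markers, ADRA1A was lower at L0 than at G90 (log2 fold change -3.09, SE 0.59, edgeR adjusted p = 0.0277) and higher at L20 than at L0 (3.60, SE 0.60, adjusted p = 0.0159). TMEM196 was likewise higher at L20 than at L0 (2.75, SE 0.39, adjusted p = 0.0116). Over all stages KNG1 (adjusted p = 0.0213), TMEM196 (0.00795) and ADRA1A (0.0248) passed in these nuclei with all 10 glands, and ESR1 (0.342), PGR (0.146) and TNFSF11 (0.157) did not. At L0, 144 of 253 and 110 of 149 members held ESR1 and PGR alone. These nuclei are among the 230 and 141 chosen for ADRA1A at L0, but holding ESR1 and PGR alone already means holding no ADRA1A. The same holds for TMEM196 and KNG1, so these counts say nothing on the level of those markers. Different markers admitted the nuclei at different stages, and the part of this in the passes above was not tested. With at least 3 other markers, and without L0 replicate 2, neither TMEM196 nor ADRA1A passed over all stages (9 glands, adjusted p = 0.872 and 0.831).

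**Figure D4:**
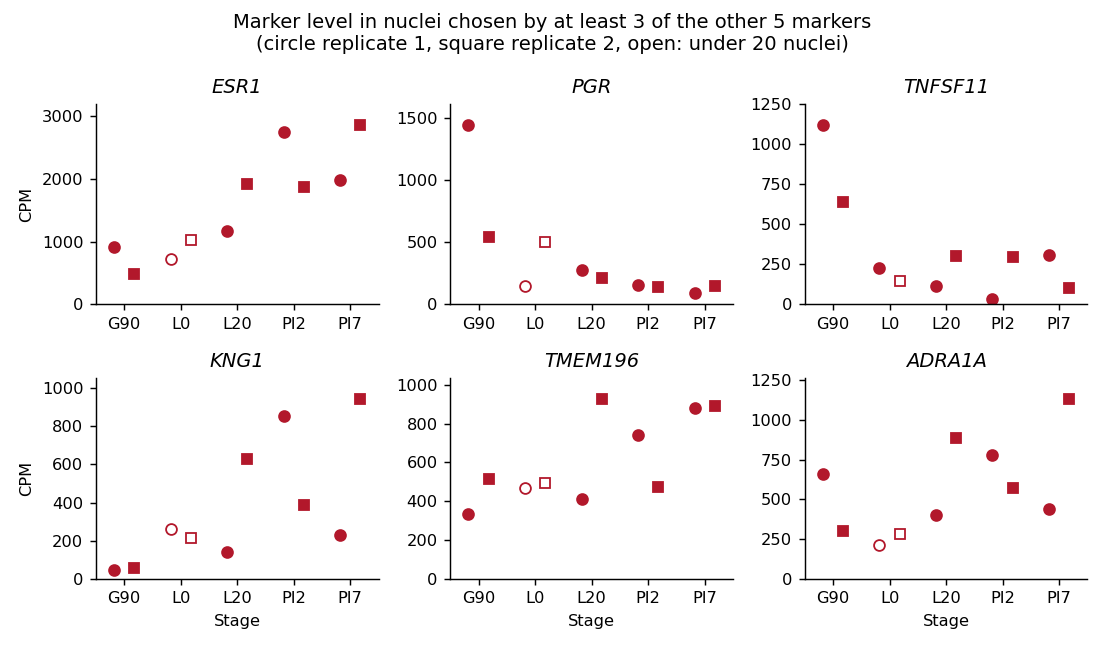
Level of each marker (CPM, linear axes from 0) by stage in nuclei chosen by at least 3 of the other 5 markers; circles are replicate 1, squares replicate 2 and open symbols rest on fewer than 20 nuclei. PGR and TNFSF11 are highest in both G90 glands, whereas ESR1 and KNG1 are lowest or among the lowest there; no test over the 5 stages passed in these nuclei, and L0 replicate 2 is plotted but entered only the test of TNFSF11.

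Whole-transcriptome comparisons of adjacent stages in the members gave calls at the onset of lactation. From G90 to L0, 130 of 10591 genes rose (1.23%) and 73 fell (0.689%). From L0 to L20, 104 rose (0.982%) and 111 fell (1.05%). Between L20 and PI2 and between PI2 and PI7, edgeR called 0 genes, with 696 and 350 at an unadjusted p under 0.05 and 11 and 3 called by DESeq2. Lactation (L0 and L20) against the other stages gave 127 genes higher (1.2%) and 31 lower (0.293%), and 387 differed between any stages (3.65%). Without L0 replicate 1 the calls from G90 to L0 and from L0 to L20 were 0 and 0, without L0 replicate 2 they were 7 and 0, and without G90 replicate 1 the former was 5 and without G90 replicate 2 it was 63. Without L20 replicate 1 the calls from L0 to L20 were 16, and those over any stages were 0 without L0 replicate 1 and 43 without L0 replicate 2.

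Named genes that rose from G90 to L0 in the members were FMO1, SNTG1, NALCN, CD36 and ARL15. CD36, a fatty acid transporter, held 18.5 and 91.7 CPM in the G90 glands, 1369.9 and 415 in those of L0, 225 and 149 of L20, 22.5 and 68 of PI2, and 80.1 and 99.3 of PI7 (log2 fold change 4.32, SE 0.92, adjusted p = 0.0431, edgeR), and ARL15, a small GTPase, held 357 and 436 CPM in the G90 glands, 6649 and 6137 in those of L0, 1676 and 726 of L20, 382 and 218 of PI2, and 319.5 and 366 of PI7 (log2 fold change 4.28, SE 0.63, adjusted p = 0.0167). Other epithelial nuclei held 1356 and 383 CPM of CD36 and 6563 and 5726 CPM of ARL15 at L0, near the members' values. CYP1B1, GABRP, KIRREL1, UBASH3B and SIDT1 fell. CYP1B1, an enzyme that hydroxylates estrogens, held 177 and 271 CPM in the G90 glands, 1.97 and 1.89 in those of L0, 8.09 and 33.7 of L20, 30 and 3.88 of PI2, and 218 and 11 of PI7 (log2 fold change -6.50, SE 1.40, adjusted p = 0.0438, edgeR) and at most 5.56 CPM in other epithelial nuclei. None of these 3 genes passed when any 1 gland of G90 or L0 was left out, with adjusted p values up to 0.274 for CD36, 0.165 for ARL15 and 0.316 for CYP1B1, and CD36 also failed without PI7 replicate 1 or 2 (0.0726 and 0.0697).

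The lineage factors TBX3 and TOX3 also passed in the members, lower at L0 than at G90 (-2.36 and -3.67) and higher at L20 than at L0 (3.04 and 4.08). Both calls of each gene were lost without L0 replicate 1 and without L0 replicate 2. The call of TBX3 from G90 to L0 was also lost without either G90 gland, L20 replicate 2 or either PI7 gland. Its call from L0 to L20 was also lost without L20 replicate 1, and that of TOX3 from G90 to L0 without G90 replicate 1. Among nuclei with at least 3 markers TBX3 held 84.2 and 121 CPM at L0, and 0 genes passed between adjacent stages in edgeR (908, 750, 334 and 215 at an unadjusted p under 0.05, in stage order). The share of members with at least 3 markers was lowest at L0, and its part in the stage differences of all members was not tested. Exactly 2 markers were held by 231 of the 253 and 138 of the 149 members at L0. Summed over 22 genes of milk secretion, those nuclei held 28940 and 20920 CPM, near the 27260 and 22880 CPM of other epithelial nuclei. They held no UMI of FOXA1 in either L0 gland, so the name hormone-sensing is not borne out for most members at L0. Calls of all members that involve L0 thus rest mostly on such nuclei at that stage. From L0 to L20, the named genes that rose were PALM3, RFX2, CFAP69, FGF14 and DNAH5, and those that fell included MSTN, MGP, PAEP and CSN1S1.

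Over all stages, 10 of 8215 genes differed in nuclei with at least 3 markers (0.122%). Those with a symbol were CCL26, LALBA, FABP3, PAEP, HPSE2, ARL15 and CSN3. HPSE2, a relative of heparanase, held 651 and 2132 CPM in the G90 glands, 76.6 and 752 in those of L0, 2.9 and 32.5 of L20, 244 and 55.2 of PI2, and 36.5 and 23.6 of PI7, and LALBA, alpha-lactalbumin, held 0 and 15.5 CPM in the G90 glands, 536 and 534 in those of L0, 23.2 and 0 of L20, 0 and 18.4 of PI2, and 0 and 0 of PI7. Immune nuclei held 208 and 94.8 CPM of LALBA at L0. CCL26, a chemokine, held 61.3 and 582 CPM at L0 and at most 16.3 CPM elsewhere.

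Whether the members changed unlike their neighbours was tested by the interaction of stage and class. From G90 to L0, 44 of 14289 genes differed in this way for all members, all of them lower (0.308%). Of these 44, 19 were also called with at least 3 markers and 2 with exactly 2. Exactly 2 markers were held by 231 of 253 and 138 of 149 members at L0, against 178 of 324 and 110 of 158 at G90. The part of this difference in the calls of all members was not tested. For nuclei with at least 3 markers 15 of 13041 were higher (0.115%) and 57 lower (0.437%), and 145 differed over any stages (1.11%). The median over all genes was -0.59 on the log2 scale in the latter comparison of G90 and L0, so values are to be read against that shift. With all later stages averaged and set against G90, a contrast chosen after values were seen, 45 genes were lower for all members (0.315%), and for nuclei with at least 3 markers 8 were higher (0.0613%) and 98 lower (0.751%), around a median of -0.31. At most 5% mitochondrial UMIs left 71 of 14044 higher (0.506%) and 272 lower (1.94%).

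FKBP5 and ZBTB16 were among the genes called by this interaction from G90 to L0. FKBP5 (chr7:31441764-31550704) encodes a cochaperone of steroid receptors and ZBTB16 (chr9:41639536-41839254) the zinc finger protein PLZF, and both are known targets of progesterone and glucocorticoid receptors. FKBP5 held 238 and 306 CPM in the G90 glands, 245 and 48.5 in those of L0, 145 and 407 of L20, 266 and 215 of PI2, and 451 and 278 of PI7 in nuclei with at least 3 markers and 67.9 and 23.2 CPM in the G90 glands, 484 and 146 in those of L0, 322 and 308 of L20, 116 and 321 of PI2, and 285 and 225 of PI7 in other epithelial nuclei. Within a gland, these members were above the other epithelial nuclei in both G90 glands, both PI7 glands, L20 replicate 2 and PI2 replicate 1. They were below them in both L0 glands, L20 replicate 1 and PI2 replicate 2. In L0 replicate 2, where 1 UMI of these members equals 24.3 CPM, the FKBP5 level of 48.5 CPM rests on few UMIs. The interaction of G90 and L0 was -2.51 for all members (SE 0.42, edgeR adjusted p = 0.0129) and -4.17 with at least 3 markers (SE 0.67, adjusted p = 0.000738). For all members it did not pass without G90 replicate 2 (adjusted p = 0.0889), without L0 replicate 1 (0.071) or without L0 replicate 2 (0.135). Between stages within the members neither FKBP5 nor ZBTB16 passed over all stages (adjusted p = 0.982 and 0.991 with at least 3 markers).

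ZBTB16 held 484 and 244 CPM in the G90 glands, 459 and 24.3 in those of L0, 249 and 526 of L20, 344 and 276 of PI2, and 335 and 294 of PI7 in nuclei with at least 3 markers and 80.1 and 15.5 CPM in the G90 glands, 808 and 537 in those of L0, 666 and 488 of L20, 357 and 805 of PI2, and 415 and 475 of PI7 in other epithelial nuclei. It was again higher in the members than in their neighbours in both G90 glands. Unlike FKBP5, it was not higher in any later gland apart from L20 replicate 2. Its 24.3 CPM in L0 replicate 2 equals 1 UMI. The interaction was -2.76 for all members (SE 0.34, edgeR adjusted p = 0.000681) and -5.20 with at least 3 markers (SE 0.69, adjusted p = 4.96e-05), and for all members it passed when any single gland was left out. In both genes the other epithelial nuclei were lower at G90 than at every later stage. In nuclei with at least 3 markers and at most 5% mitochondrial UMIs, the later stages held no L0 gland. Of L20 they held only replicate 2 and of PI2 only replicate 1. Against the mean of these later stages, the interaction was -2.22 for FKBP5 and -3.58 for ZBTB16. From G90 to L0, exactly 2 markers gave -1.11 and -0.79, which did not pass. Immune nuclei held 249 to 1752 CPM of FKBP5.

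Other genes also had a class difference that was larger at G90 than over the later stages. LIFR, the receptor of leukemia inhibitory factor, held 380.5 and 636 CPM in the G90 glands, 161 and 194 in those of L0, 151 and 298 of L20, 273 and 126 of PI2, and 196 and 294 of PI7 in nuclei with at least 3 markers and 143 and 97.3 CPM in the G90 glands, 305 and 256 in those of L0, 157 and 232 of L20, 166 and 117 of PI2, and 227 and 190.2 of PI7 in other epithelial nuclei (interaction on the log2 scale -2.13, SE 0.41, adjusted p = 0.00345, edgeR). IL1R1, the receptor of interleukin 1, held 3183 and 4031 CPM in the G90 glands, 1309 and 1116 in those of L0, 1344 and 2598 of L20, 1352 and 1930.3 of PI2, and 2501 and 1276 of PI7, against 70 and 16.9 CPM in the G90 glands, 63.9 and 23.1 in those of L0, 553 and 752 of L20, 301 and 128 of PI2, and 782 and 716 of PI7. Members were above their neighbours in every gland, while the other epithelial nuclei were lowest at G90 and L0 (interaction on the log2 scale -4.11, SE 0.57, adjusted p = 2.57e-05, edgeR).

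LSAMP, a cell adhesion molecule (chr13:143675521-144304186), varied widely over stages. It held 8210.3 and 3031 CPM in the G90 glands, 1998 and 3009 in those of L0, 81.1 and 2251 of L20, 106 and 102 of PI2, and 239.8 and 10.5 of PI7 in nuclei with at least 3 markers and 6.58 to 38.8 CPM in other epithelial nuclei. The glands of G90 and L0 and L20 replicate 2 held the highest levels and did not overlap with the other 5 glands (interaction on the log2 scale -3.25, SE 0.56, adjusted p = 0.000704, edgeR, not called from G90 to L0 at -0.09). ARNTL2, a clock factor, held 317 and 787 CPM in the G90 glands, 207 and 146 in those of L0, 159 and 233 of L20, 71.1 and 179 of PI2, and 83.8 and 60.4 of PI7 against 5.52 to 77.6 CPM, with the same direction (interaction on the log2 scale -3.57, SE 0.46, adjusted p = 6.96e-06).

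PTHLH, the parathyroid hormone-like ligand (chr5:45750968-45763421), held 17.9 and 93 CPM in the G90 glands, 0 and 0 in those of L0, 5.79 and 0 of L20, 1.13 and 5.25 of PI2, and 6.64 and 0 of PI7, with both G90 glands above the others, and 0.318 to 29.5 CPM in other epithelial nuclei (interaction on the log2 scale -7.16, SE 1.48, adjusted p = 0.00701, edgeR). In nuclei with at most 5% mitochondrial UMIs, where no L0 gland was left, it did not pass (interaction on the log2 scale -6.86, SE 2.53). ERBB4 was lower at L0 than at G90 relative to the other epithelial nuclei (interaction on the log2 scale -2.77, SE 0.54, adjusted p = 0.00715, edgeR), but not over all later stages (-0.23). At L0, 1 UMI equals 7.66 CPM in the 22 nuclei of replicate 1 and 24.3 CPM in the 11 nuclei of replicate 2, which limits every value of that stage. The mitochondrial share of these nuclei was also high (medians 17.5% and 10.8%), and its part in the interaction of G90 and L0 was not tested.

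**Figure D5:**
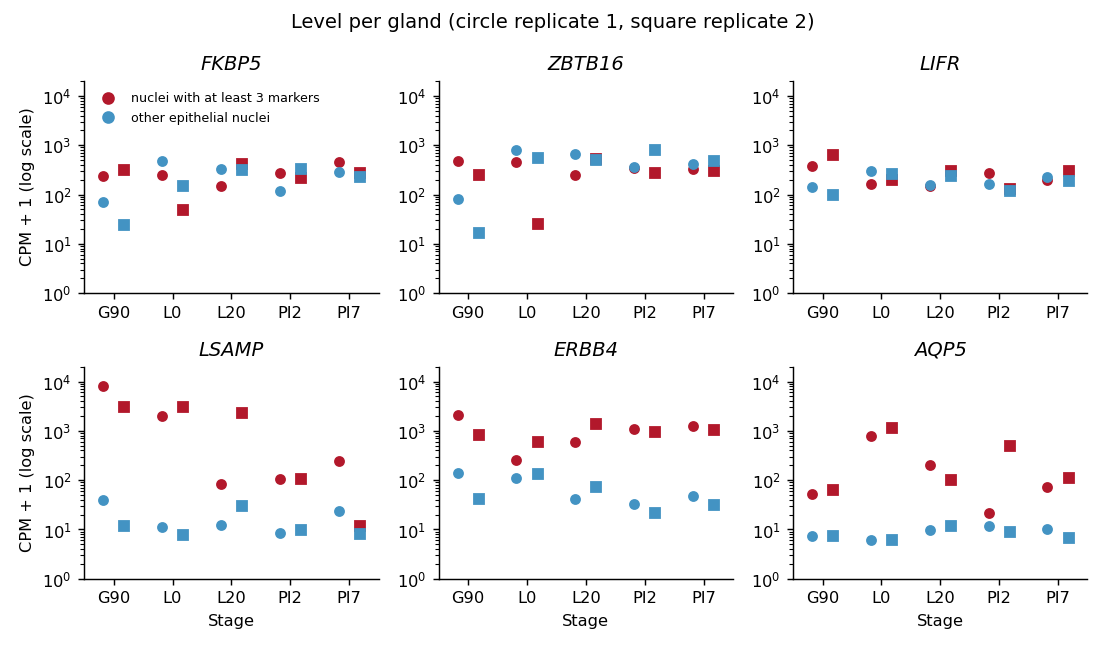
Level (CPM + 1, log axes) of FKBP5, ZBTB16, LIFR, LSAMP, ERBB4 and AQP5 by stage in nuclei with at least 3 markers (red) and other epithelial nuclei (blue); circles are replicate 1 and squares replicate 2. FKBP5, ZBTB16 and LIFR are higher in red than in blue in both G90 glands, and at L0 ZBTB16 and LIFR are lower in red in both glands, LSAMP separates them most at G90, L0 and L20 replicate 2, ERBB4 in every gland, and AQP5 most at L0.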

How the data were processed

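Nuclei of 10 mammary glands (2 sows at each of 5 stages) were profiled by single-nucleus RNA sequencing on a microfluidic chip. The authors deposited 1 matrix of UMI counts per library, made with CeleScope 1.1.7 against Sscrofa11.1 per the labels. Values are raw counts, with no normalization, and reads of introns cannot be told apart from those of exons in them. The 2 tissue sections and 2 milk libraries were not used here. Of 28711 gene IDs, 16101 had a symbol. Libraries held 18962138 to 53165191 UMIs; intervals on shares are exact binomial (95%) and cover counting error only.

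Nuclei with at least 300 genes were kept, and members were chosen by their markers. UMIs were summed per class and gland and tested with edgeR 4.0.16 (quasi-likelihood, TMM, filterByExpr; R 4.3.3), with the gland as a block between classes. Adjusted p values are Benjamini-Hochberg over all genes tested. A call needed an adjusted p under 0.05 and, for single contrasts, an absolute log2 fold change over 1. DESeq2 1.42.0, no filter, other marker, depth and mitochondrial limits, and leaving out each gland were alternatives. Scrublet (scanpy 1.11.5) set a threshold that called no doublet in 8 of 10 libraries, so doublets were kept, and leaving out the top 5% of scores was an alternative. The fits were tested on simulated data.

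Named genes were those of the lists and, for class comparisons, the 10 called genes with the largest fold change in each direction, at least 20 CPM in the higher class and the same direction in every gland. For stage comparisons they were the 5 in each direction whose glands did not overlap, and for tests over all stages the 10 with the smallest p. IL1R1, LSAMP, ARNTL2 and PTHLH were described by stage after their values were seen. The members and lists were chosen with earlier results of these data known. Genes of the lists without a symbol here (AFF3, WNT4, IGF2, CALCA, ADRA1B, CSN1S2, GLYCAM1, KRT17, LAMA2, CD3G, ITGAX, MKI67, RRM2, SOCS3 and BCL2L11) were not analysed here. A few genes are not reported here.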

Additional observations from a re-analysis of the deposited data

Results flagged for a closer look

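These genes had a difference from G90 to L0 that was not the same in the members as in other epithelial nuclei, by the interaction in edgeR (log2 scale, negative where the members went lower relative to their neighbours). For all members, the values were -3.20 for ERBB4, -4.03 for GRAMD1B, a membrane lipid transfer protein, -2.76 for ZBTB16, -4.00 for AKR1C2, a steroid reductase, -2.51 for FKBP5, -4.61 for SIDT1, -3.91 for ZNF385C and -4.07 for FOSL2, a factor of the AP-1 family. At L0, 231 of 253 and 138 of 149 members held exactly 2 markers, and the part of this in these values was not tested.

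For nuclei with at least 3 markers, the lower values were -5.20 for ZBTB16, -4.17 for FKBP5, -3.13 for LIFR, -4.90 for ST6GALNAC3, -2.77 for ERBB4, -5.44 for ADAMTSL3 and -5.46 for FOSL2. RHOT1 was -11.44 with no UMI in either L0 gland, so that its size depends on the prior count and is no bound. The higher values were 3.63 for ND4L and 3.08 for ND1, which are mitochondrial genes, 4.08 for AQP5, 4.20 for BCAM, 3.86 for FOS and 2.42 for CSN2. Of these nuclei at L0, 16 of 22 and 8 of 11 held over 5% mitochondrial UMIs, against 32 of 146 and 0 of 48 at G90, and the part of this share in these values was not tested. Pooled over glands, which differ in that share, AQP5 held 311 CPM in nuclei over 5% and 59.5 CPM in the others, and BCAM 99.3 and 38.5 CPM.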

How the results depend on the processing

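Stage comparisons of the members rest on few glands, while both class comparisons gave calls in each setting run. Counts are given in the order G90 to L0, L0 to L20, L20 to PI2, PI2 to PI7, lactation, any stage, then other epithelial, KIT-positive, and the stage by class comparisons of G90 and L0, of any stage and of all later stages with G90, with those within 1.5 times of the reported count left out. Leaving out 1 gland gave 0 to 479, 0 to 504, 0 to 1, 0 to 6, 0 to 389 and 0 to 865 for the stages, 702 to 936 and 734 to 1007 for the classes, and 13 to 180 and 28 to 774 for the first 2 stage by class comparisons. DESeq2 called 542, 596, 11, 3, 402, 1156 and, for stage by class over any stage, 194. No filter on low counts gave 782, 922, 76, 79, 689, 1918, then 1275 for other epithelial nuclei and 105 and 382 for stage by class. At least 3 markers gave 0, 0, lactation 0, any stage 10, then 2432, 2348, 72, 145 and 106. At most 5% mitochondrial UMIs gave 435 for G90 to L0, 621 for lactation, 675 for any stage, and 210 and 301 for stage by class. Exactly 2 markers gave 51 for L0 to L20, 141 and 200 for the classes, and 4 for stage by class. Only the 2 stages compared gave 416 and 539. Without L20 replicate 2 and PI2 replicate 2 together (chosen after seeing the data, as were the next settings) the counts were 689, 447, 26, lactation 503, any stage 1284, stage by class 411 and 1793, with the class counts within 1.5 times. At least 3 markers gave 2248 with at least 2000 UMIs and 2192 without the L0 glands against other epithelial nuclei, and with at most 5% mitochondrial UMIs 1983, 1997, stage by class 420 and 343. The cause of these differences was not tested.

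The replicate numbers do not pair the sows (correlations of same-numbered deviations from -0.26 to 0.16), and a replicate block gave 28, 91, lactation 41 and any stage 169. Without the sow as a replicate block, the class comparisons gave 317 and 327. Shares of members leaving out 1 gland ran from 0.845% to 2.83% at G90, 1.58% to 2.20% at L0, 0.640% to 1.21% at L20, 1.01% to 2.90% at PI2 and 1.95% to 2.84% at PI7. Of members and other epithelial nuclei the shares were 8.20%, 4.66%, 12.9%, 6.42% and 15.2% in stage order, at least 3 markers gave 0.154% at L0, 0.370% at L20 and 1.23% at PI7, and thinning gave 0.573% at L0. Of 6233 values of 313 called comparisons of named genes under the alternatives, 5027 kept their call, 1206 did not and 0 changed sign.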

Other observations

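Beside its markers ESR1, PRLR and PGR, the study names 7 genes for hormone-sensing cells at single stages (ERBB4 at G90, TGFA at G90 and PI2, and PIK3R1, MAPK10, BMPR1A, BMPR1B and STK3 at PI2), which were compared here over all 10 glands. Of these, ERBB4 was higher in nuclei with at least 3 markers than in other epithelial nuclei, PIK3R1, a subunit of PI3 kinase, and BMPR1B, a BMP receptor, were lower and 4 did not pass. The study drew these names from the same samples. TGFA, a ligand of the EGF receptor, held 1124 and 469 CPM in the G90 glands, 199 and 97.1 in those of L0, 125 and 379.7 of L20, 346 and 205 of PI2, and 271 and 265 of PI7 and was not called (log2 fold change 0.17, SE 0.24, adjusted p = 0.644, edgeR). PIK3R1 held 91.9 to 475 CPM against 288 to 1209 CPM (log2 fold change -1.17, SE 0.20, adjusted p = 8.88e-05), and BMPR1B held 36.8 to 267 CPM against 246 to 742 CPM (log2 fold change -1.82, SE 0.18, adjusted p = 3.99e-08). For all members only ERBB4 passed.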
